A study of Nothobranchius furzeri with 15 samples.

Results

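A set of 148 liver genes stood far higher in 2 of the 5 libraries from fish given rotenone at 150 pM than in the other 3 of that group. The genes were picked from 15834 genes that passed a filter on low counts, out of 26739 gene identifiers. Each library carries the number of its title, and the high pair are libraries 8 and 10 of the 150 pM group. A gene entered the set when the lower of libraries 8 and 10 lay more than 2 log2 units (4-fold) above the highest of 150 pM libraries 9, 11 and 12. Levels for this step were log2 CPM, which is counts scaled to a common effective library total. A second condition left out 1 further gene, whose lowest 150 pM library was above all 10 DMSO and 15 pM libraries. The choice used the measured 150 pM values, so the contrast among the 150 pM libraries is a description and was not tested.

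Rotenone is a plant-derived inhibitor of complex I, the enzyme by which NADH feeds electrons into the mitochondrial respiratory chain. The liver is built mainly of hepatocytes, together with bile duct, endothelial, stellate, blood and immune cells, and in many bony fishes pancreatic tissue lies within or against it. The turquoise killifish, Nothobranchius furzeri, is an annual fish with a very short natural life and is used to study ageing.

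All 15 libraries were of total RNA from liver of male fish of the inbred GRZ strain at 9 weeks of age. The groups were DMSO, the solvent control, and rotenone at 15 pM and at 150 pM, with 5 libraries each. The labels do not give the route or length of exposure, or say that each library came from a separate fish, so a p-value speaks only for the scatter of these libraries, which may be technical. No identifier was found among 38438 genes of the reference table, and the deposited tables hold no names. For this reason the genes have no symbol or role here, lists of liver, pancreatic, immune and other cell markers could not be applied, and the liver label was not checked against its markers. In bulk tissue, more cells of a type and more RNA per cell cannot be told apart.

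Total counts ran from 22185038 to 35672589 per library, and libraries 8 and 10 held 22185038 and 26731540. The share of counts taken by a library's 10 most abundant genes was 21.2% for library 8 and 19.1% for library 10, against 25.3% to 29.8% for the other 3 libraries of 150 pM. The DMSO libraries lay between 27% and 29.8% in this share, and 95% Wilson intervals were within 0.0183 percentage points of each share, for counting error only. TMM scaling factors were 1.13 and 1.12 for the high pair, against 0.904 to 0.969 for libraries 9, 11 and 12. Factors this high were not particular to the pair, with 1.15 for DMSO library 1 and 1.11 for 15 pM library 4. The part of these differences in the levels that follow was not tested. A chi-square test of counts gave 65.9 per degree of freedom between libraries 8 and 10, and 43.4 to 791 over all 30 pairs within groups, where counting error alone gives about 1. The pair thus differed by more than counting error, as did every other pair within a group, and each library was counted as 1 sample.

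Summed over the 148 genes, expression reached 5313 CPM (library 8) and 5670 CPM (library 10). The same sum was 149.9, 226 and 238 CPM in 150 pM libraries 9, 11 and 12. In DMSO libraries 1 to 5 it was 456, 279, 216, 229.9 and 223 CPM, and in 15 pM libraries 1 to 5 it was 231, 174, 204, 728 and 324 CPM. The high pair therefore stood above all 13 other libraries, the next being 15 pM library 4, while 150 pM library 9 had the lowest sum of all 15. As a share of all counts the genes took 0.598% of library 8 and 0.632% of library 10. The 95% Wilson intervals were 0.595% to 0.602% and 0.629% to 0.635% in turn, for counting error only. In the other libraries the share of the genes lay between 0.0145% and 0.0811%.

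**Figure D1:**
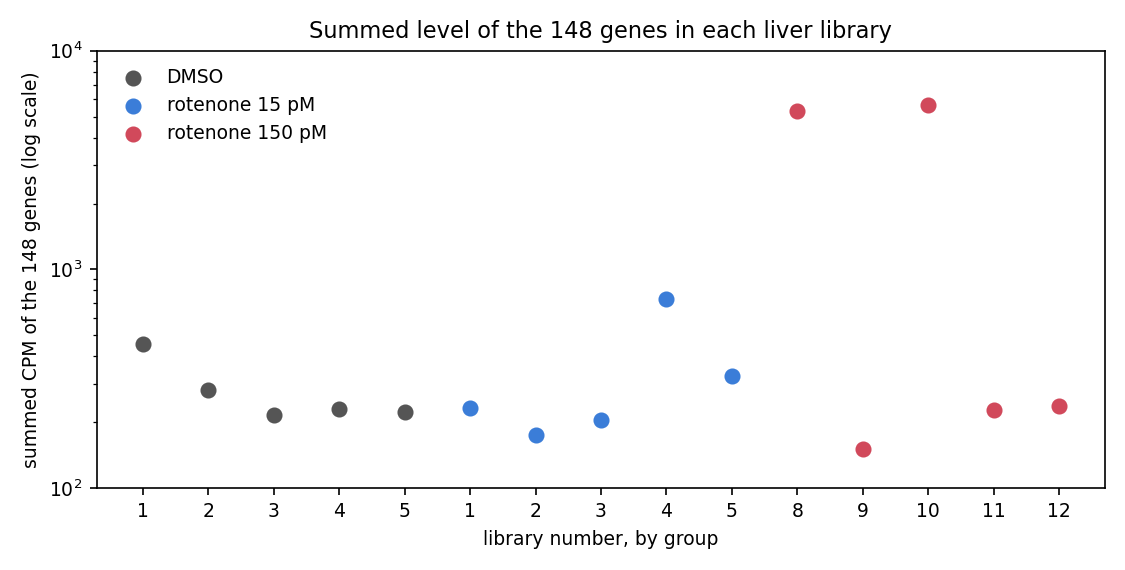
Summed CPM of the 148 genes on a log scale (vertical axis) in each of the 15 liver libraries (horizontal axis, library number by group), with each point a library. 150 pM libraries 8 and 10, at 5313 and 5670 CPM, lie above the 13 others, which range from 149.9 to 728 CPM.

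The typical gene of the set was scarce in most livers and of middling abundance in the high pair. The median over the 148 genes was 11.2 and 12.7 CPM in the high pair (library 8 first, here and in the pairs of values that follow), and between 0.416 and 1.05 CPM in the 13 others. Per kilobase of gene length, the median level of the set was 3.4 and 3.54 CPM in libraries 8 and 10, where the median of all genes tested was 2.9 and 2.82 CPM. In the other 13 libraries the set's median per kilobase was 0.125 to 0.339 CPM, against 2.54 to 2.97 CPM over all genes. Ranked by level per length among all genes tested, the median gene of the set sat at percentile 54.2 in library 8 and 55.7 in library 10, and between percentiles 8.25 and 15.1 elsewhere. The counts behind these levels were a median of 281 reads per gene in library 8 and 378.5 in library 10, with lowest values of 14 and 20, against medians of 10 to 43 in the others.

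Of the 148 genes, 79 exceeded 10 CPM in both libraries 8 and 10, and 14 exceeded 100 CPM in both. In 31 genes all 13 other libraries were under 1 CPM, and 10 of these were above 10 CPM in both high libraries. The lower of libraries 8 and 10 was at least 2-fold above the highest of all 13 others in 121 genes, at least 4-fold in 93 and at least 8-fold in 46. These counts describe the values by which the genes were chosen.

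Nfu_g_1_010324 had the widest margin of the 148. The high pair held 229.8 and 239 CPM of it, from 5742 and 7117 reads. In 150 pM libraries 9, 11 and 12 it was at 0.333, 0.471 and 0.244 CPM. The 5 DMSO libraries held 1.88, 0.0372, 0.353, 0.296 and 0.676 CPM, and the 15 pM libraries held 0.268, 0.258, 0.449, 0.259 and 0.439 CPM. The DMSO and 15 pM groups overlapped, and the lower of libraries 8 and 10 was 122-fold above the highest of the 13 others, which was DMSO library 1. The gene was picked for its 150 pM values, so its fold change and p against DMSO describe those values and are no test of the dose. With all 15 libraries, the log2 fold change of 150 pM over DMSO was 7.10 (SE 1.78, edgeR adjusted p = 0.0332), although 3 of its 5 libraries lay within the DMSO range. SE, here and below, is the absolute log2 fold change divided by the square root of the edgeR F statistic, an approximation. The fold stayed between 6.36 and 8.08 with any 1 library left out, while the edgeR adjusted p lay between 0.0205 and 0.0937 and rose above 0.05 when any DMSO library, or library 8 or 10, was the one omitted. It was 7.06 with the 10 libraries of the comparison alone (edgeR adjusted p = 0.0501). It was 7.17 with DESeq2 (adjusted p = 1.6e-05) and 3.61 with limma voom (adjusted p = 0.536). Without libraries 8 and 10 together it had a log2 fold change of -0.89 (edgeR adjusted p = 0.605).

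Nfu_g_1_022918 had the next widest margin. The high pair held 59.5 and 76.2 CPM of it, against 0.0416, 0.109 and 0.122 CPM in libraries 9, 11 and 12. DMSO libraries 1 to 5 held 0.805, 0.707, 0.353, 0.333 and 0.716 CPM. The 15 pM libraries held 0.0766, 0, 0.0816, 0.444 and 0.11 CPM, where the count of 0 in library 2 allows up to 0.11 CPM (3 counts). The low 150 pM libraries lay below all 5 DMSO libraries and among those of 15 pM. The log2 fold change of 150 pM over DMSO was 5.52 (SE 1.57, edgeR adjusted p = 0.0533), a description for the same reason. The fold lay between 4.63 and 5.83 with any 1 library left out, with edgeR adjusted p from 0.0317 to 0.13 and under 0.05 when 150 pM library 9, 11 or 12 or 15 pM library 4 was the one omitted. It was 5.54 with DESeq2 (adjusted p = 0.00303) and 1.39 with limma voom (adjusted p = 0.74). Without libraries 8 and 10 together it was -2.6 (edgeR adjusted p = 0.131).

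**Figure D2:**
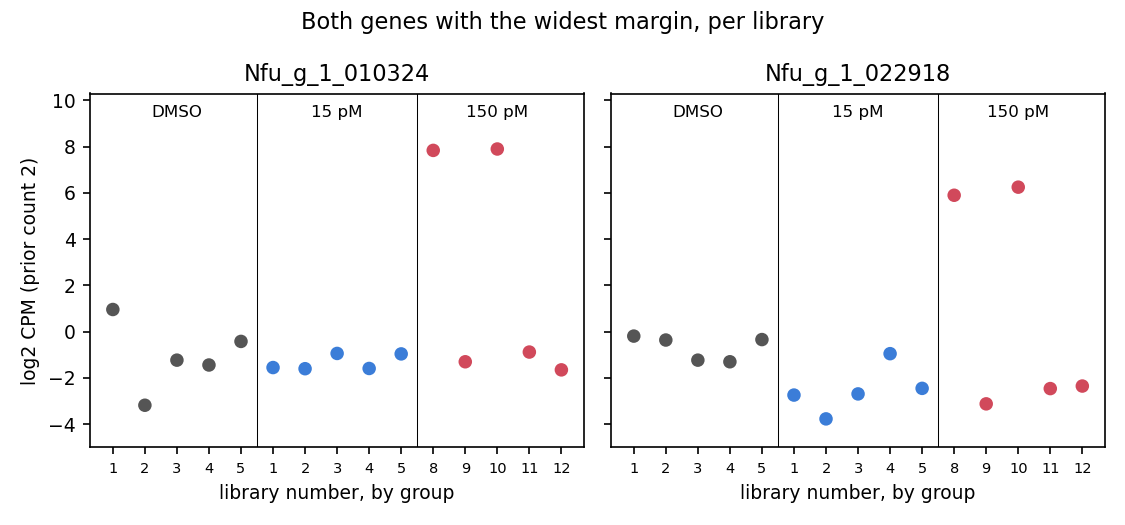
Log2 CPM (vertical axis, prior count 2) of Nfu_g_1_010324 and Nfu_g_1_022918 in each library (horizontal axis, library number within DMSO, 15 pM and 150 pM), with each point a library. In 150 pM libraries 8 and 10 the log2 values are 7.84 and 7.90 for the first gene and 5.90 and 6.25 for the second, and in no other library does either gene exceed 0.96.

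The 10 most abundant genes of the set made up 46.1% of its summed CPM in library 8 and 45.6% in library 10, so the sum was not carried by a single transcript. The most abundant gene was at 518 and 551 CPM in the high pair, and at no more than 8.53 CPM elsewhere. The second was at 306 and 260.3 CPM, with 39.5 CPM in the highest other library. The third was at 219 and 339 CPM against at most 5.12 CPM, and the fourth at 268 and 267 CPM against at most 1.02 CPM. The seventh, at 208 and 211 CPM and no more than 7.17 CPM elsewhere, had the greatest length of all genes tested, 88560 bases. The tenth, at 133 and 176 CPM, was the shortest of the set at 444 bases.

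Libraries 8 and 10 held the genes in nearly the same proportions. All 148 genes agreed within 2-fold between them and 129 within 1.5-fold, with 59 higher in library 8 and 89 in library 10. The difference of log2 CPM, library 8 minus library 10, had a median of -0.09 and an SD of 0.376 over the set, and it ranged from -0.90 to 0.96. Over all genes tested the SD of this difference was 0.728. Across the 148 genes Pearson's r of log2 CPM was 0.982 between the pair. In the 29 other pairs of libraries within a group it was 0.485 to 0.91. The lowest value was of 150 pM libraries 8 and 9, which the rule sets apart, and 15 pM libraries 3 and 4 gave 0.495. The high pair also had more reads per gene, with medians of 281 and 378.5 against 10 to 43 in the other libraries. The part of this in r was not tested. Across all genes tested r was 0.958 for the pair. Genes are not independent replicates, and the rule required both libraries to be high, so these figures are a description.

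**Figure D3:**
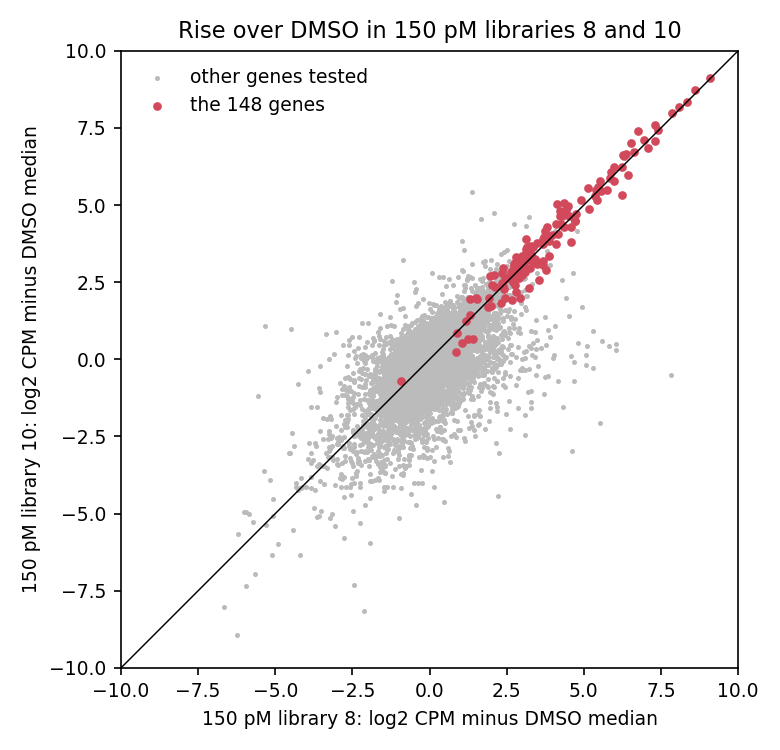
Log2 CPM minus the gene's DMSO median in 150 pM library 8 (horizontal axis) and library 10 (vertical axis) for the 148 genes (red) and the other genes tested (grey), with a line of equality. The red points follow the line up to 9.08 and 9.13 log2 units, and their library difference stays between -0.90 and 0.96.

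Genes of the set had a median length of 3376 bases (quartiles 2020 and 5473), against 2812 bases (1401 and 4886) over all genes tested. Lengths over 10000 bases were found in 11 of them, or 7.43%, against 3.13% of all genes. Within the set, Spearman's rho of the margin was 0.0409 with length and -0.106 with the mean log2 CPM in DMSO, both across 148 genes as a description. Lengths were recovered from the authors' RPKM values.

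More genes were higher than lower in the high pair, which the rule singles out as high. The counts below hold the values that the rule used, so they are a description and were not tested. At a margin of more than 1 log2 unit, 326 genes lay higher in both libraries 8 and 10 than in the other 3 of their group, and 41 lay lower. At more than 2 units the numbers were 149 and 6, at more than 3 they were 69 and 4, and at more than 4 they were 37 and 3. Of the higher genes at these 3 margins, 148, 68 and 37 were the genes of the set. The 3 genes just inside the threshold had margins of 2, 2.017 and 2.021 log2 units, and the nearest 3 outside had 1.993, 1.991 and 1.99. The smallest margin inside came from 1.96 CPM in the lower of libraries 8 and 10 against 0.435 CPM in the highest of the other 3, and the largest outside from 8.5 against 2.08 CPM.

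The filter on low counts removed more genes of this kind than it kept. It required about 0.376 CPM in at least 5 libraries, so a gene present in libraries 8 and 10 alone could not pass. Without it, 334 genes met the rule, of which 188 had been removed by the filter and 146 were in the set. In these 188 genes the median level was 2.51 and 2.63 CPM in the high pair, and the highest reached 482 and 429.9 CPM. The highest of the 13 other libraries had a median of 0.222 CPM over them. Their summed level was 2339 and 2547 CPM in the high pair and between 9.19 and 46.9 CPM in the other 13. At least 10 counts in both libraries 8 and 10 were found in 184 of them and at least 100 counts in 70, and 5 had 0 counts in all 13 others.

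Between 15 pM and DMSO, edgeR called 0 of the 148 genes higher and 0 lower (quasi-likelihood F-test, Benjamini-Hochberg adjusted p under 0.05), where 0.524% of all genes tested were called higher and 3.69% lower. This fit takes 1 estimate of spread per gene from all 15 libraries, and the rule chose genes that are far apart within the 150 pM group. The rule thus raised the error against which 15 pM was tested, and the counts of 0 do not show that these genes were alike in both groups. At an unadjusted p under 0.05 the fit gave 2 genes higher (1.35%) and 4 lower (2.7%), against 6.35% and 12% of all genes. Without libraries 8 and 10, an alternative chosen after the data were seen, it gave 13 higher (8.78%) and 17 lower (11.5%), against 7.51% and 11.4% of all genes. Of these, 1 higher and 3 lower passed adjustment, where 0.414% and 2.65% of all genes did.

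With the 10 libraries of DMSO and 15 pM alone, 119 of the 148 genes passed the filter. Of these, edgeR gave 10 higher (8.4%) and 11 lower (9.24%) at an unadjusted p under 0.05, against 6.75% and 10.8% of all genes, and called 0 and 0 after adjustment (0.261% and 1.54%). In all 15 libraries, DESeq2 called 1 of the 148 higher and 2 lower, against 2.56% and 5.99% of all genes, with no adjusted p for 2 of the 148. Limma voom called 0 and 0, against 0.518% and 4.46% of all genes. At an unadjusted p under 0.05 limma voom gave 1 higher (0.676%) and 4 lower (2.7%), against 4.72% and 13.2% of all genes. Without 15 pM library 4, edgeR called 0 higher and 1 lower, against 1.8% and 6.77% of all genes. With all 15 libraries, the smallest edgeR adjusted p in the set was 0.0865. The median log2 fold change of the set was 0.11 (quartiles -0.44 and 0.49), against 0.03 over all genes, but it was -0.14 without 15 pM library 5, -0.09 without 15 pM library 4 and -0.11 with limma voom. The 5 libraries of 15 pM lay wholly below the 5 of DMSO in 4 of the 148 genes (4.58% of all genes tested) and wholly above in 0 (1.67%).

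Against DMSO, 150 pM was called higher in 47 of the 148 genes by edgeR, and 2.13% of all genes tested were called higher. The rule used these 150 pM values, so nothing is read from the difference of these shares. The median log2 fold change of the set was 2.31 (quartiles 1.62 and 3.59). In 138 genes both libraries 8 and 10 lay above all 5 DMSO libraries, including all 47 that were called. The share of all genes tested in which this held is not given here, so nothing is read from the 138. Leaving out DMSO library 1, 2, 3, 4 or 5 lowered the number called to 7, 4, 8, 8 or 8, and leaving out library 8 or 10 of 150 pM lowered it to 9 or 8. Leaving out 150 pM library 9 raised it to 81. Leaving out 15 pM library 4, a member of the shared fit but not of the comparison, raised it to 72. It was 0 with limma voom and without libraries 8 and 10 together. Library totals in place of TMM gave 26, the 10 libraries of the comparison alone 30, and DESeq2 96. The shares of all genes called in these alternatives are not given here. Changes in the number called are therefore not read as results about the set.

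Against 15 pM, 150 pM was called higher in 76 of the 148 genes, and 9.14% of all genes were called higher. The median log2 fold change of the set was 2.43 (quartiles 1.78 and 3.46). In 133 genes libraries 8 and 10 lay above all 5 libraries of 15 pM, and the share of all genes tested in which this held is not given here. The rule used the 150 pM values here too, so these numbers are a description. Leaving out 15 pM library 1 or 2 lowered the number called to 29 or 32, and leaving out library 8 or 10 of 150 pM lowered it to 28 or 27. It was 13 with the 10 libraries of the comparison alone, and 1 with limma voom and without libraries 8 and 10 together. The comparisons with DMSO and with 15 pM share the 150 pM libraries, and their counts are not independent. For 15 pM too, the shares of all genes called in the alternatives are not given here.

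In 150 pM libraries 11 and 12 the typical gene stood near its DMSO level, and in library 9 it stood lower. The median log2 CPM of the set was -0.2 and -0.14 in libraries 11 and 12, and -1.03 in library 9. In the DMSO libraries it ran from -0.51 to 0.17. The mean log2 CPM over libraries 9, 11 and 12 differed from the DMSO mean by a median of -0.189 over the set (quartiles -0.667 and 0.226). Over all genes this median was -0.0191. It was below the DMSO mean in 87 of the 148 genes. All 3 libraries lay below all 5 of DMSO in 17 genes and above them in 2. The shares over all genes tested are not given here, so nothing is read from these numbers. Library 12 was the highest of the 3 in 69 genes, library 11 in 60 and library 9 in 19. The rule favours low values in these libraries, so this is a description as well.

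Genes of the set differed in whether any DMSO or 15 pM library reached the high pair. Libraries 8 and 10 lay above all 13 others in 131 genes, which is a description, because the rule chose genes high in this pair. In the other 17 genes at least 1 DMSO or 15 pM library reached the lower of the pair, namely 15 pM library 4 in 15 genes and DMSO library 1 in 10, so that each of the 17 was reached by at least 1 of these. DMSO library 2 reached it in 5 genes, 15 pM library 5 in 2, and DMSO libraries 3, 4 and 5 and 15 pM library 1 in 1 each. 15 pM libraries 2 and 3 reached it in 0. The shares over all genes tested are not given here, so nothing is read from these counts.

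Which of the 10 DMSO and 15 pM libraries was highest differed from gene to gene. The highest library was 15 pM library 5 in 42 genes, DMSO library 1 in 31 and 15 pM library 4 in 28, and any of the other 7 in 47. Relative to its group mean, the median deviation of the set was 0.41 log2 units in 15 pM library 5, 0.34 in DMSO library 1 and 0.21 in 15 pM library 4. The 7 others lay between -0.52 and -0.01, and over all genes the 10 medians lay between -0.02 and 0.03. DMSO library 1 was above its group mean in 115 of the 148 genes, 15 pM library 5 in 109 and 15 pM library 4 in 88. The shares over all genes tested are not given for these counts or for those of the highest library. Nothing is therefore read from either about the set. Over all genes tested, 15 pM library 4 also stood apart from its group. Its Pearson's r of log2 CPM with the rest was 0.839 to 0.892, against 0.948 to 0.965 among the other 15 pM pairs.

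Sorted by which of these 10 libraries was highest, the genes fell into differing profiles. The 42 genes highest in 15 pM library 5 also had the highest median level in the high pair, with medians of 15.5 and 19.8 CPM. Their median in 15 pM library 5 was 1.34 CPM, and relative to each gene's median over the 13 other libraries it stood 1.15 log2 units up there, 0.63 up in 150 pM library 12 and 0.71 down (-0.71) in 150 pM library 9. Of these 42 genes, 0 had a DMSO or 15 pM library reaching the pair.

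The 28 genes highest in 15 pM library 4 stood 2.04 log2 units up there and 0.92 up in DMSO library 1 on the same relative scale. In the pair they were lower than the 42, with medians of 8.56 and 7.42 CPM in libraries 8 and 10, and 10 of the 28 were reached by a DMSO or 15 pM library. The 31 genes highest in DMSO library 1 stood 1.57 log2 units up there and 0.24 up in 15 pM library 4. The median of the other 47 genes lay between -0.42 and 0.25 in each of the 13 libraries on this scale, while single genes lay well outside this range. This sorting was made after the values were seen and was not tested. The rise of a block in the library that defines it follows from the sorting.

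**Figure D4:**
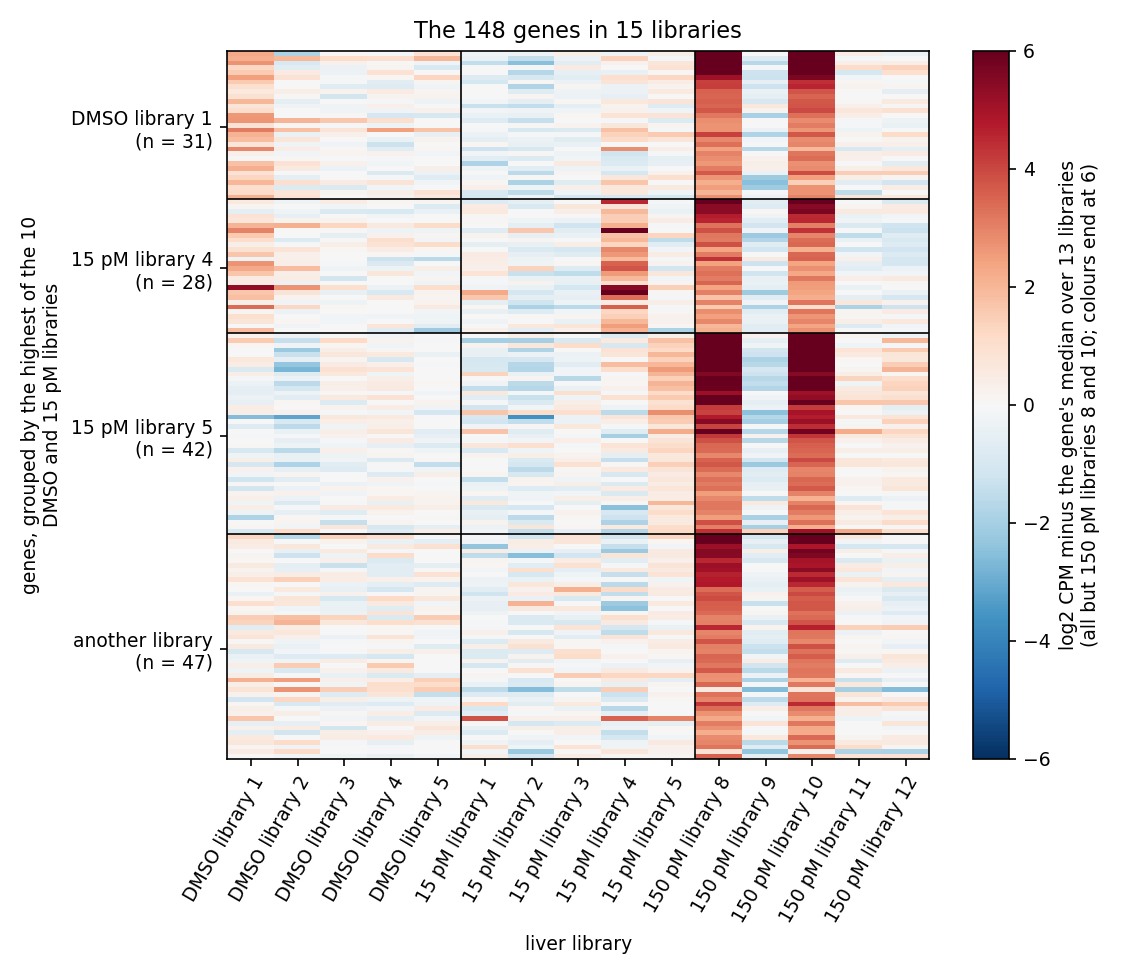
Log2 CPM minus each gene's median over the 13 libraries other than 150 pM libraries 8 and 10 (colour, which ends at 6 in either direction) for the 148 genes (listed vertically, grouped by the highest of the 10 DMSO and 15 pM libraries and sorted by margin) in 15 libraries (columns). Both high libraries are red for nearly all genes, and paler red marks DMSO library 1, 15 pM library 4 and 15 pM library 5 in the blocks of 31, 28 and 42 genes that these define.

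**Figure D5:**
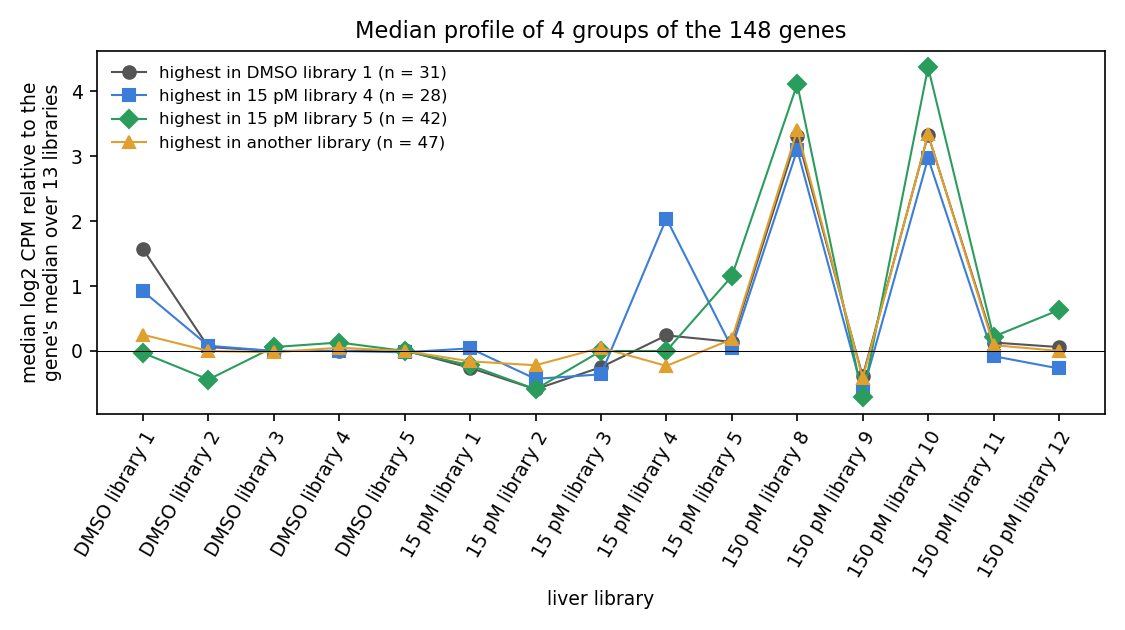
Median over genes of log2 CPM relative to the gene's median over 13 libraries (vertical axis) in the 15 libraries (horizontal axis), with a line for each block of genes sorted by the highest of the 10 DMSO and 15 pM libraries. The block of 42 genes highest in 15 pM library 5 reaches 4.11 and 4.37 in 150 pM libraries 8 and 10, and the other 3 blocks reach 2.97 to 3.40.

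Within the DMSO and 15 pM groups the typical gene of the set had a wider scatter than the typical gene tested. The SD of log2 CPM over the 5 DMSO libraries had a median of 0.565 in the set and 0.258 over all genes tested, and 0.446 and 0.224 without DMSO library 1. Over the 5 libraries of 15 pM these medians were 0.815 and 0.444, and 0.606 and 0.3 without 15 pM library 4. The set's DMSO mean had a median of 0.764 CPM against 7.46 CPM over all genes, and the part of this low level in the scatter was not tested.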

How the data were processed

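Liver RNA of 15 samples was sequenced. Libraries were prepared by the TruSeq RNA kit v2, per the labels' protocols, and this kit leaves reads without strand. Tools named in the submitters' processing notes are STAR 2.4.1d, featureCounts 1.4.6-p4 and CASAVA 1.8.2, without their order or settings. The genome build, gene models and handling of reads with many matches were not given in the sources used here, so genes with near copies, overlapping genes or antisense partners are uncertain. The authors deposited whole-number read counts per gene, not normalized, and a table of RPKM values. Of 105783 RPKM values with over 200 counts and an RPKM over 2, 8.73% gave 1 gene length within 0.2% with their own library's total and 100% with library totals recycled down the rows, so RPKM served only to recover gene lengths.

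Tests used edgeR 4.0.16 in R 4.3.3 (quasi-likelihood F-test, two-sided) on the counts, with all 15 libraries in 1 fit, TMM factors, no covariate and filterByExpr (minimum count 10, 15834 genes). P-values were Benjamini-Hochberg adjusted over all genes tested, at 0.05. Log2 CPM used a prior count of 2. DESeq2 1.42.0 and limma 3.58.1 (voom), other scaling, filters, prior counts and left-out libraries were alternatives. Scripts were tested on simulated data. For the rule, the genes raised in these data were well counted with little spread, so how it finds scarce genes was not tested. The genes and lists were chosen with earlier results of these data known. Identifiers were printed by a rule: the 2 widest margins at a mean of at least 5 CPM, and the largest falls called at 15 pM, of which there were 0. A count of 0 allows up to 3 counts, 0.0732 to 0.125 CPM by library, for counting error only.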

Additional observations from a re-analysis of the deposited data

Results flagged for a closer look

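Of 12 sets of 5 values examined (the summed and the median level of the 148 genes and the CPM of both genes named, in each group), 4 held a library far from the other 4 for the spread of its group. The nominal rate of such marks is about 1 in 20, and these sets are not independent. Single genes were marked more often than this over all genes tested, so 4 of 12 is not to be set against 1 in 20. The rule chose genes high in a pair of 150 pM libraries, which leaves no single library of that group standing alone. The 150 pM sets were thus hardly open to being marked, and nothing is read from their lack of marks. Applied to single genes, the same mark fell on 0 of the 148 at 150 pM, against 6.78% of all genes tested. In DMSO it fell on 26 of the 148 (17.6%), against 8.56% of all genes. At 15 pM it fell on 34 (23%), against 13.9% of all genes. All 4 marked sets were of DMSO or 15 pM, so 4 of 12 understates the share among sets open to it. In DMSO, library 1 had the highest summed level, 456 CPM against at most 279 CPM, and the highest median log2 CPM of the set, 0.17 against at most -0.34. At 15 pM, library 4 had the highest summed level, 728 CPM against at most 324 CPM. For Nfu_g_1_022918, 15 pM library 4 was at 0.444 CPM and the other 4 at 0 to 0.11 CPM.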

How the results depend on the processing

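The number of genes meeting the rule was 148, and 144 to 182 with RLE, upper-quartile or no scaling factors, 156 and 133 with prior counts of 0.5 and 5, 334 with no filter and 77 with a filter of 1 CPM in 5 libraries. Leaving out any 1 library gave 153 to 273, the highest without 150 pM library 10, where library 8 alone sets the margin, and each such fit filters anew. Genes of the set called higher and lower at 15 pM against DMSO were 0 and 0 in edgeR, 1 and 2 with DESeq2, 1 and 3 without 150 pM libraries 8 and 10 (a choice made after seeing the data, which takes the values the rule used out of the error), and 0 and 0 to 1 with any 1 library left out, and the median log2 fold change ranged from -0.14 to 0.26. Genes called higher at 150 pM were, against DMSO and against 15 pM in turn, 47 and 76 in edgeR, 4 to 81 and 27 to 100 with any 1 library left out, 18 and 37 with the 1 CPM filter, 96 and 103 with DESeq2, 0 and 1 with limma voom, 30 and 13 with the 10 libraries of a comparison alone, 0 and 1 without libraries 8 and 10, and 26 and 71 with library totals. The shares of all genes called at 150 pM in these alternatives are not given here. Changes in these numbers are therefore not read as results about the set. Without libraries 8 and 10, log2 fold changes turned to -0.89 (Nfu_g_1_010324, 150 pM against DMSO), and to -2.6 and -0.64 (Nfu_g_1_022918, 150 pM against DMSO and against 15 pM). For Nfu_g_1_010324, 15 pM against DMSO was -1.02 (edgeR adjusted p = 0.818), -1.28 to 0.01 with any 1 library left out (0.01 without DMSO library 1) and 0.09 without both DMSO library 1 and 15 pM library 4. Apart from what fewer samples or genes bring, the cause was not tested. Libraries with the same title number in DMSO and 15 pM did not deviate together (r between -0.05 and 0.09 over 15834 genes), and 0 of 10 libraries matched its own number best. With the number as a replicate block, edgeR called 0 higher and 0 lower, and the median log2 fold change was -0.07. Depth limits the low side: with medians of 10 to 43 reads per gene in the 13 other libraries, small differences among them may have been missed. The smallest difference that could be found was not computed.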

Other observations

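In the opposite direction, 6 genes were lower in both 150 pM libraries 8 and 10 than in the other 3 of their group by more than 2 log2 units. The widest of these was at 9.68 and 4 CPM in this pair, against 736 to 2660 CPM in libraries 9, 11 and 12 and 159 to 2428 CPM in DMSO. The next was at 0.32 and 0.369 CPM against 23.8 to 61.8 CPM, with DMSO libraries from 0.298 to 20.9 CPM. The third was at 0.8 and 0.168 CPM against 40.7 to 58.3 CPM, with DMSO from 3.42 to 52.9 CPM. With no filter the number was 7. The values describe these libraries, and no test was made.

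The gene left out by the second condition was at 24.3 and 22.6 CPM in libraries 8 and 10. It was at 1.87, 1.96 and 2.32 CPM in libraries 9, 11 and 12, and at 0.111 to 1.46 CPM in the 10 DMSO and 15 pM libraries, so all 5 libraries of 150 pM lay above all 10 others.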
